A study of Mus musculus with 7 samples.

Results

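The S100 calcium-binding genes are described here across bone marrow cells of mice that carried a RUNX1 mutation, overexpressed HMGA2, or both. The 8 genes S100a8, S100a9, S100a11, S100a6, S100a4, S100a10, S100a1 and S100a13 were taken by symbol from a table of 28987 genes. They were chosen by their TPM and share of TPM in all 7 libraries, where S100a8 went a different way from S100a9 in 1 library, so the levels of those 2 genes in every comparison with that library are given as a description without a test. All 8 genes had a value above 0 in each of the 7 libraries and passed the filter on low values in both cell types.

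S100 proteins are small proteins that bind calcium through EF-hand loops and mostly work as dimers. S100A8 and S100A9 pair to form calprotectin, the main cytosolic protein of neutrophils, which withholds zinc and manganese from microbes. Once released, it acts on Toll-like receptor 4 and on the receptor for advanced glycation end products. The other members act mainly inside cells. S100A10 pairs with annexin A2, S100A11 binds annexin A1, S100A4 binds non-muscle myosin, and S100A6 binds the calcyclin-binding protein. S100A1 is best known as a regulator of calcium handling in muscle, and S100A13 for its part in the export of proteins that lack a signal peptide.

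Marrow was taken from individual C57BL/6 mice. Hematopoietic stem and progenitor cells (HSC/P), positive for CD117 and of the sorted mutant clone, gave 1 library with HMGA2 overexpression (HMGA2-OE) and 2 with a RUNX1 mutation and HMGA2 overexpression (RUNX1mut/HMGA2-OE). Sorted Ly6G+ myeloid cells gave 1 library each of 4 genotypes, Control, RUNX1mut, HMGA2-OE and the combination RUNX1mut/HMGA2-OE. All HSC/P libraries thus carried HMGA2 overexpression, and the RUNX1mut/HMGA2-OE pair of HSC/P libraries was the only replicate. The labels name neither the RUNX1 mutation, nor the way HMGA2 was driven, nor the mark of the mutant clone, nor the age of the mice. Values are TPM, a share of transcripts corrected for length, so the levels of different genes can be compared. Reads per library are unknown.

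Hmga2 was at 138 to 176 TPM in HSC/P, and in Ly6G+ cells at 3.72 and 12.1 TPM in the 2 HMGA2-OE libraries against 1.45 TPM in Control and 1.36 TPM in RUNX1mut. Runx1 was higher in each RUNX1mut library (219 and 225 TPM in HSC/P, 11.6 and 21.2 TPM in Ly6G+) than in the others of its cell type (18.9 TPM in HSC/P, 3.36 and 3.85 TPM in Ly6G+). The summed TPM of 8 HSC/P marker genes, among them Kit, Cd34 and Gata2, was 459 to 845 in HSC/P and 11.9 to 38.5 in Ly6G+ cells. The summed TPM of 20 neutrophil genes was 94895 to 219909 in Ly6G+ cells and 3760 to 15256 in HSC/P. No marker of either list was at 0 throughout a cell type.

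All 8 genes lie on mouse chromosome 3 (build mm10, GENCODE M21) within 3.05 Mb. S100a8 (ENSMUSG00000056054, chr3:90668978-90670035, plus strand) and S100a9 (ENSMUSG00000056071, chr3:90692632-90695721, minus strand) are neighbours, 22596 bp apart, and their 3′ ends face each other. S100a1 (chr3:90511034-90514392, minus strand) and S100a13 (chr3:90514435-90524581, plus strand) start back to back, 42 bp apart. S100a4 (chr3:90603771-90606045) and S100a6 (chr3:90612882-90624181) lie between these pairs. S100a11 (chr3:93520488-93526287) and S100a10 (chr3:93555080-93564643) lie further along, and these 4 genes are on the plus strand. The longest annotated transcripts are short, from 498 nt for S100a8 and S100a4 to 783 nt for S100a6, and that of S100a9 is 519 nt.

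The sequences just upstream of S100a8 and S100a9 are shown because these neighbours parted in 1 library, and the stretch between S100a1 and S100a13 because that pair shares it. They are from the RefSeq promoter table of the same build and run 5′ to 3′ on the gene's strand, or on the plus strand for the shared stretch. Capitals mark matches on either strand to short letter patterns, with N for any base. These were searched for RUNX (TGNGGT), C/EBP (TTNNGNAA), PU.1 (GAGGAA) or the TATA box (TATAAA). The S100a8 sequence stops at the first annotated base of the gene (chr3:90668821-90668977), and that of S100a9 is chr3:90695722-90695971.
S100a8: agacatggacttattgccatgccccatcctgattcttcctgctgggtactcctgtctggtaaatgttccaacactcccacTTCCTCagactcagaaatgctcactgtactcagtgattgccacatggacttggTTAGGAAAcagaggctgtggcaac
S100a9: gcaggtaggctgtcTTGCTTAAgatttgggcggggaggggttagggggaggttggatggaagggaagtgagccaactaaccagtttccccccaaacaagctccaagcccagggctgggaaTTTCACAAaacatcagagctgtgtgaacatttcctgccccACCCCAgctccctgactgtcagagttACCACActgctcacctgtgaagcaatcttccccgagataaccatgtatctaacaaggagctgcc
S100a1 to S100a13 (chr3:90514393-90514434): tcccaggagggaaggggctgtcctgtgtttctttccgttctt
The S100a8 stretch of 157 bases held 1 C/EBP match and 1 PU.1 match and none for RUNX. RefSeq places the start of S100a8 93 bp further in, and the 93 bases before it that are not printed held 1 more PU.1 match and 1 TATA match. The S100a9 stretch of 250 bases held 2 RUNX and 2 C/EBP matches and none for PU.1, and the 42 bases between S100a1 and S100a13 held no match. Read on the opposite strand, the 2 RUNX matches of S100a9 are TGGGGT and TGTGGT, so they differ at the N. Among 32851 promoters, 40.1% held the RUNX letters within 250 bases before the start, 36.8% the C/EBP letters, 23.3% the PU.1 letters and 12.4% the TATA letters. A match is a description of letters, not of a bound factor.

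S100a8, the calprotectin subunit that was the most abundant transcript of the family in 6 of the 7 libraries, was far lower in Ly6G+ RUNX1mut/HMGA2-OE cells than in any other Ly6G+ library. Its level was 439280 TPM in Control, 398580 TPM with RUNX1mut alone, 546267 TPM with HMGA2-OE alone and 30622 TPM with both. The first 3 lie close together, and the last is 13.02-fold below the lowest and 17.8-fold below the highest of them. In HSC/P, S100a8 was at 33943 TPM with HMGA2-OE alone, and the 2 libraries with both alterations had 11165 and 9687 TPM. The Ly6G+ RUNX1mut/HMGA2-OE level thus fell within the range of the HSC/P libraries.

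S100a9, the partner subunit, did not share this pattern. It was at 83597 TPM in Ly6G+ Control, 82047 TPM with RUNX1mut alone, 70749 TPM with HMGA2-OE alone and 141874 TPM with both, where it was highest of the 4. In HSC/P it was at 19224 TPM with HMGA2-OE alone, and with both alterations at 4956 and 5953 TPM. The ratio of S100a8 to S100a9 TPM was 5.25, 4.86 and 7.72 in Ly6G+ Control, RUNX1mut and HMGA2-OE, and 0.216 in RUNX1mut/HMGA2-OE. In HSC/P the ratio was 1.77 with HMGA2-OE and 2.25 and 1.63 in the pair, so Ly6G+ RUNX1mut/HMGA2-OE was the only one of the 7 libraries with more S100a9 than S100a8. In bulk samples such as these, fewer cells that hold a transcript and less of it per cell cannot be told apart.

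**Figure D1:**
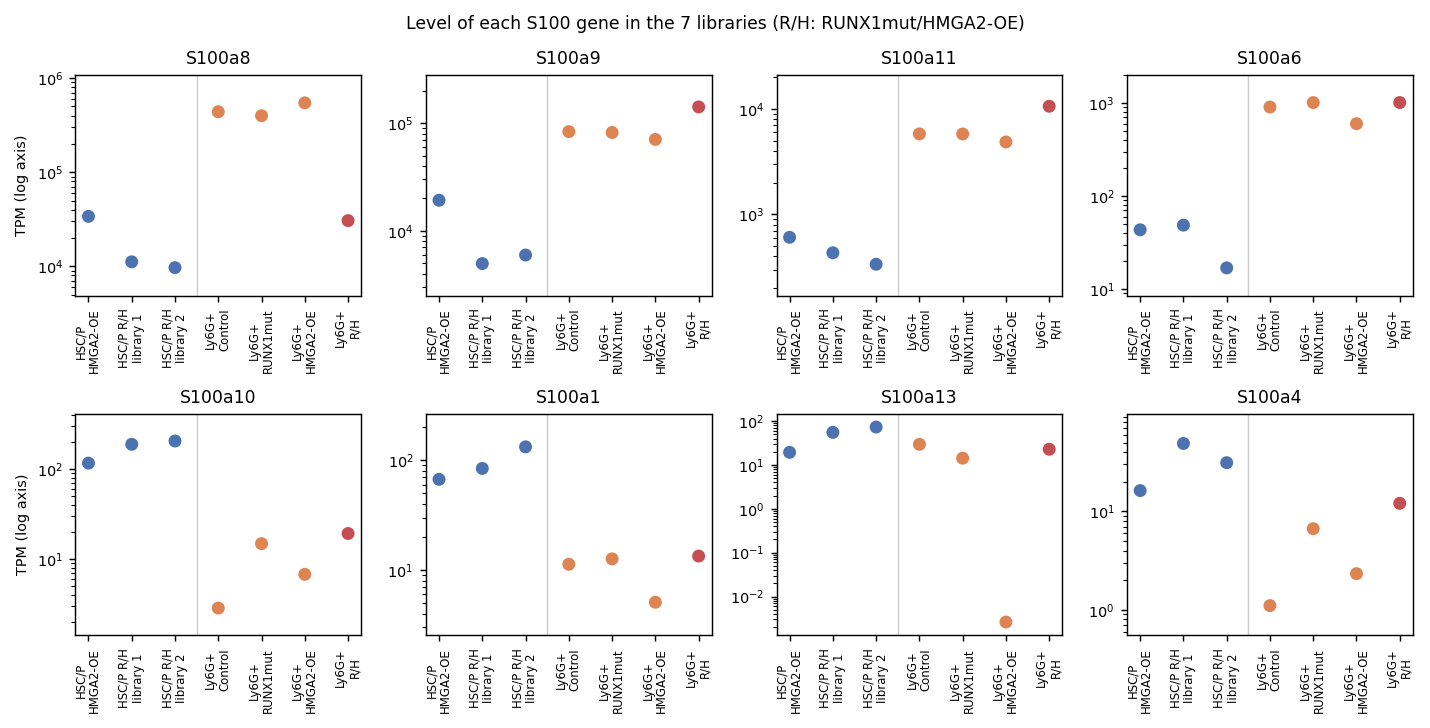
TPM (log axis, own scale per gene) of the 8 S100 genes in the 7 libraries, 1 point per library, with HSC/P in blue, Ly6G+ in orange and Ly6G+ RUNX1mut/HMGA2-OE (R/H) in red. S100a8 is at 30622 TPM in the red library and at 398580 TPM or more in the orange ones, while S100a9 and S100a11 are highest in the red library.

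The family took 53.4%, 49.2% and 62.7% of all TPM in Ly6G+ Control, RUNX1mut and HMGA2-OE, and 18.7% in RUNX1mut/HMGA2-OE. S100a8 alone took 44.3%, 40.2% and 55.01% in the first 3 and 3.11% in the last. The share of S100a9 was 8.44%, 8.28%, 7.12% and 14.4% in the same order. The 6 other members together took 0.553% to 0.693% in the first 3 Ly6G+ libraries and 1.19% in RUNX1mut/HMGA2-OE. In HSC/P the family took 6.03% with HMGA2-OE alone, then 1.84% and 1.76% with both, and the 6 other members took 0.0850% to 0.0969%.

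**Figure D2:**
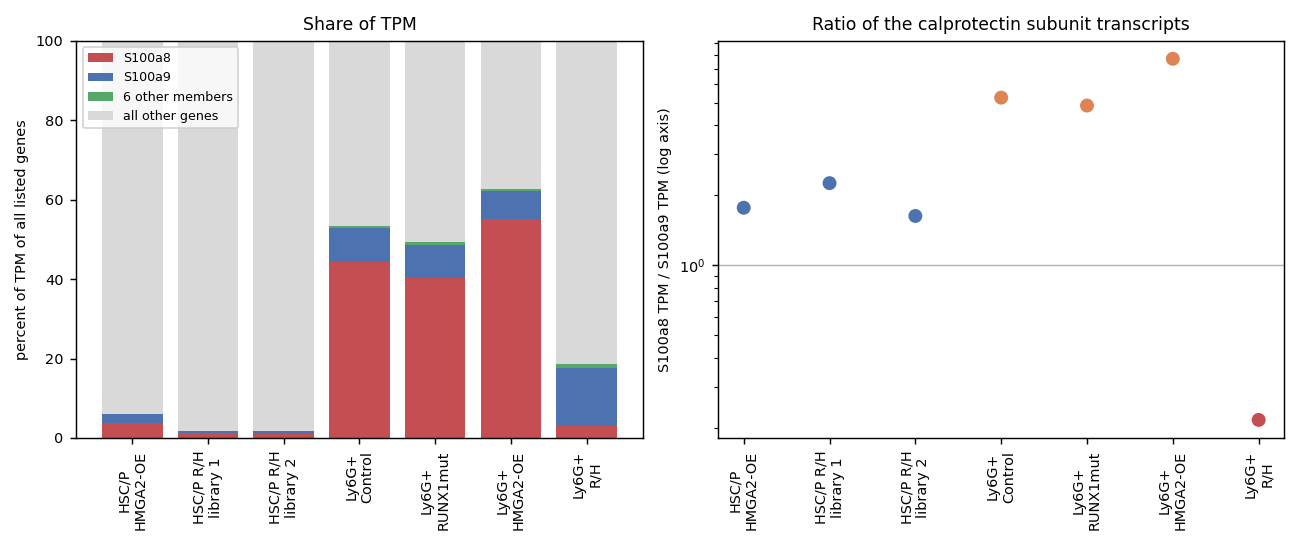
Left, percent of the TPM of all listed genes taken by S100a8, S100a9, the 6 other members and all other genes in each library. Right, the ratio of S100a8 to S100a9 TPM (log axis, line at 1): it is 1.63 or more in 6 libraries and 0.216 in Ly6G+ RUNX1mut/HMGA2-OE (R/H).

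After libraries were scaled by a trimmed mean over genes, the log2 ratio of S100a8 in Ly6G+ RUNX1mut/HMGA2-OE was -5.35 over HMGA2-OE, -4.33 over RUNX1mut and -4.65 over Control. Of 9820 genes, 14 had a lower ratio than S100a8 over HMGA2-OE. At least 2-fold lower in this comparison were 4.99% of genes and at least 2-fold higher 4.93%, and nothing is read from S100a8 against these shares because it was chosen for this value. The 3 ratios share the RUNX1mut/HMGA2-OE library. Those of S100a9 were -0.19, 0.16 and -0.04, and without scaling they were 1.004, 0.79 and 0.76. RUNX1mut alone over Control gave -0.32 for S100a8 and -0.20 for S100a9, and HMGA2-OE alone gave 0.70 and 0.14. No ratio between single Ly6G+ libraries has a replicate behind it.

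**Figure D3:**
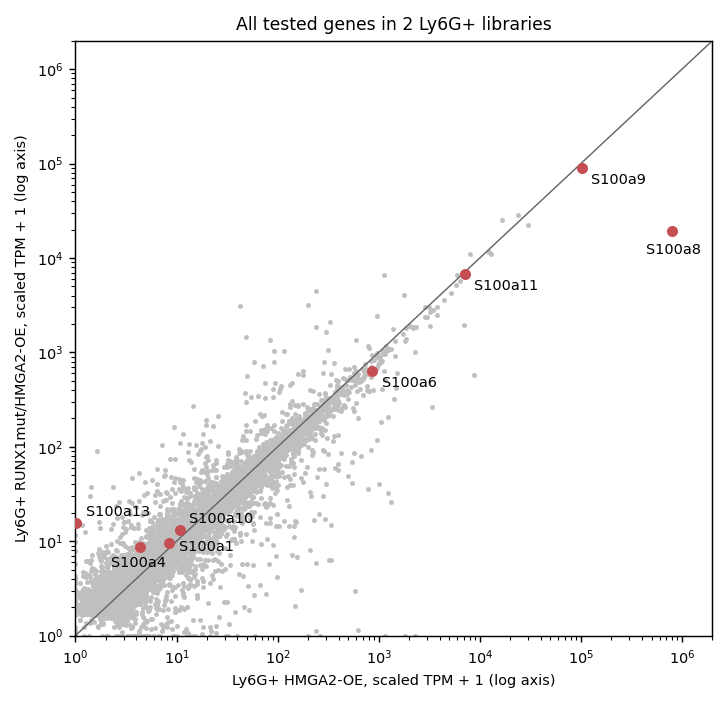
Scaled TPM + 1 of 9820 genes (grey points) in Ly6G+ RUNX1mut/HMGA2-OE against Ly6G+ HMGA2-OE (log axes, line of equal values), with the 8 S100 genes in red. S100a8 lies far below the line with a log2 ratio of -5.35, and S100a9, S100a11, S100a6, S100a1, S100a10 and S100a4 lie within 1 log2 unit of it.

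Abundant genes that were lowest in Ly6G+ RUNX1mut/HMGA2-OE are listed beside S100a8. Nothing is read from the rank of S100a8, because it was chosen for its value in this library. Of 1075 genes that reached 100 TPM in a Ly6G+ library, 24 (2.23%) were at least 2-fold below the lowest of the other 3 libraries, and S100a8 was the tenth, by TPM + 1. After scaling, 43 (4.01%) were at least 2-fold lower, and S100a8 ranked 11. The 10 named genes with the lowest ratios were Ndufb4c, Bend6, S100a8, Rps29, Ctdsp1, Rps28, Lhx1, Romo1, H2-K2 and Eif1. Rps29 and Rps28 encode proteins of the small ribosomal subunit. Rps29 was at 639, 961 and 854 TPM in Control, RUNX1mut and HMGA2-OE and at 50.0 TPM in RUNX1mut/HMGA2-OE. Eif1, a translation initiation factor, was at 2292, 2462 and 5982 TPM in the first 3 libraries and at 897 TPM in the last. The opposite end was led by H3f3c and Hist1h4m, which are listed at 0 in the other 3 libraries, and by Fbxw9, Hbb-bs and Naa38. Hbb-bs, an adult beta globin, was at 32.4, 116 and 28.8 TPM in Control, RUNX1mut and HMGA2-OE and at 4934 TPM in RUNX1mut/HMGA2-OE. The summed TPM of 8 erythroid genes was 6935 in that library and 126 to 537 in the other Ly6G+ libraries, and its part in the S100a8 value was not tested.

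Several of these genes have short transcripts, for which TPM depends strongly on the fragment length a program assumes. Among the 24 genes found without scaling, those with an annotated length numbered 22, and 13 (59.1%) had a longest transcript of at most 600 nt, against 72 of 1058 (6.81%) of all genes at this level. In the length class of S100a8 (above 420 and up to 600 nt), the median log2 ratio of 197 genes over HMGA2-OE was 0.21. In that class 41 genes reached 100 TPM, of which 7 were at least 2-fold lower, S100a8 among them, and 8 at least 2-fold higher. S100a9 and S100a11, of 519 nt and 511 nt, are in the same class and had log2 ratios of -0.19 and -0.07. The part of transcript length in the S100a8 value was not tested.

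S100a9 and S100a11 had their highest TPM in Ly6G+ RUNX1mut/HMGA2-OE, and their shares were nearly even across the 4 libraries once S100a8 was left out of the total. S100a11, the annexin A1 partner, was at 5816 TPM in Control, 5809 TPM with RUNX1mut alone, 4878 TPM with HMGA2-OE alone and 10646 TPM with both. As a share of TPM without S100a8, it took 1.05%, 0.981%, 1.09% and 1.12% in that order. S100a9 took 15.2%, 13.9%, 15.8% and 14.9% of TPM without S100a8.

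The mean of the other 3 Ly6G+ libraries was the measure for each member in RUNX1mut/HMGA2-OE. S100a9 stood at 1.8 times this mean in deposited TPM and at 0.995 times without S100a8. S100a11 stood at 1.94 and 1.07 times. S100a6 went from 1.21 to 0.677 times and S100a1 from 1.39 to 0.792 times. S100a4, at 3.59 and 2.05 times, and S100a10, at 2.35 and 1.33 times, stood furthest above the mean on both measures. Over 3125 other genes at 10 TPM or more in each Ly6G+ library, the median was 1.76 times as deposited and 0.979 times without S100a8. Each deposited TPM is a share of 1 total, so the other genes have higher shares where S100a8 has less.

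**Figure D4:**
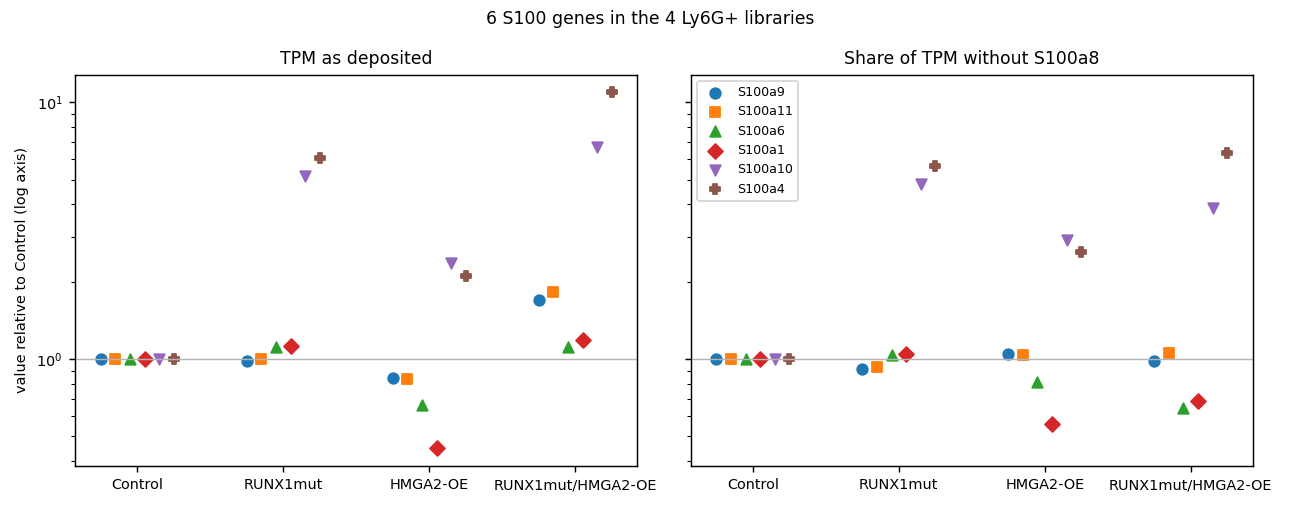
Values of 6 S100 genes in the 4 Ly6G+ libraries relative to Control (log axis, line at 1), as deposited TPM (left) and as a share of TPM without S100a8 (right). In RUNX1mut/HMGA2-OE, S100a9 and S100a11 stand above Control on the left and near 1 on the right, while S100a4 and S100a10 stand above Control in both.

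S100a9 kept step with other neutrophil genes within each cell type. S100a8 stood far below its other ratios to these genes only in Ly6G+ RUNX1mut/HMGA2-OE, the library for which it was chosen. The comparison was with the summed TPM of 20 neutrophil genes, among them the granule protein genes Ngp, Camp, Ltf and Lcn2. S100a9 was at 0.694, 0.619, 0.746 and 0.645 times this sum in the Ly6G+ libraries, in the order Control, RUNX1mut, HMGA2-OE, RUNX1mut/HMGA2-OE. It was at 1.26, 1.32 and 1.22 times the sum in the 3 HSC/P libraries. S100a8 was at 3.65, 3.005 and 5.76 times the sum in the first 3 Ly6G+ libraries and at 0.139 times in RUNX1mut/HMGA2-OE. In HSC/P it was at 2.22, 2.97 and 1.98 times. The 20 genes took 21.8%, 22.4%, 21.2% and 23.1% of TPM without S100a8 in the 4 Ly6G+ libraries, in the same order.

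**Figure D5:**
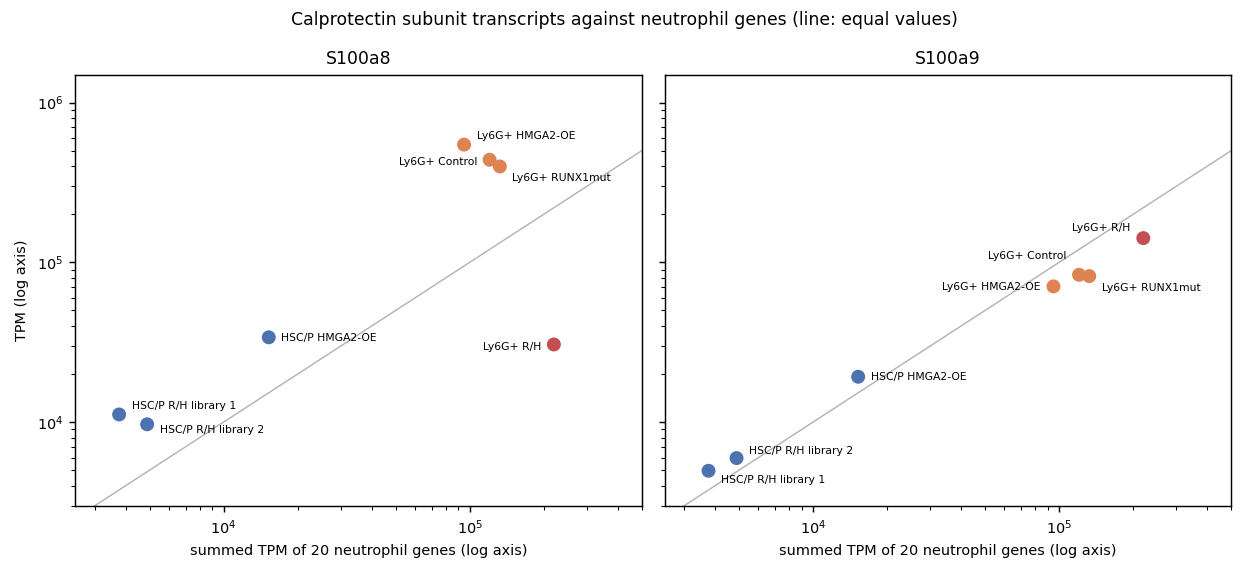
TPM of S100a8 (left) and S100a9 (right) against the summed TPM of 20 neutrophil genes in the 7 libraries (log axes, line of equal values, R/H for RUNX1mut/HMGA2-OE). S100a9 lies between 0.619 and 1.32 times the sum in each library, and S100a8 lies above the line in 6 libraries and at 0.139 times the sum in Ly6G+ R/H.

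The members separated into those with higher levels in Ly6G+ cells and those with higher levels in HSC/P. S100a9, S100a11 and S100a6 were lower in every HSC/P library than in any Ly6G+ library, as were 9.18% of 12881 genes. S100a10, S100a1 and S100a4 were higher in every HSC/P library, as were 66.5% of genes. The choice of members used these levels, so nothing is read from either count. S100a8 and S100a13 overlapped. S100a6 was at 43.4, 48.7 and 16.9 TPM in HSC/P, against 904, 1008, 598 and 1009 TPM in the Ly6G+ libraries, in the same order of genotypes. S100a11 was at 607, 433 and 337 TPM in HSC/P, below the lowest Ly6G+ value of 4878 TPM.

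S100a10, the annexin A2 partner, was at 116, 188 and 204 TPM in HSC/P. Its Ly6G+ levels were 2.87 TPM in Control, 14.9 TPM with RUNX1mut alone, 6.79 TPM with HMGA2-OE alone and 19.3 TPM with both. S100a1 was at 67.0, 84.3 and 133 TPM in HSC/P, against 11.3, 12.6, 5.07 and 13.4 TPM in the Ly6G+ libraries. S100a4 was at 16.3, 48.9 and 31.2 TPM in HSC/P, against 1.10, 6.67, 2.33 and 12.1 TPM in the Ly6G+ libraries, so its groups nearly met. S100a13 was at 19.4, 55.4 and 73.4 TPM in HSC/P, against 29.6, 14.3, 0.00262 and 22.9 TPM in the Ly6G+ libraries. The Ly6G+ HMGA2-OE value of S100a13 is so low that no ratio was taken against it.

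The order of levels was S100a8, S100a9, S100a11, S100a6 in 3 Ly6G+ libraries, and in RUNX1mut/HMGA2-OE S100a9 and S100a8 changed places. In each HSC/P library the order was S100a8, S100a9, S100a11, S100a10, S100a1. The order of S100a6, S100a13 and S100a4 below them differed between the HSC/P libraries. On the log2 scale of scaled TPM + 1, the RUNX1mut/HMGA2-OE pair of HSC/P libraries had an SD of 0.18 for S100a8, 0.15 for S100a9 and 0.05 for S100a10. The SD was 0.25 to 0.48 for S100a13, S100a11, S100a1 and S100a4 and 1.07 for S100a6.

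The cell types were compared by limma on log2 of scaled TPM + 1 in the 5 libraries with HMGA2 overexpression, with the RUNX1 mutation as a term. Of 12686 genes, 64.7% passed at a Benjamini-Hochberg adjusted p of 0.05 (32.2% higher in HSC/P and 32.5% higher in Ly6G+ cells), and 4 of the 6 members other than S100a8 and S100a9 did, a share near that of all genes. All 20 neutrophil genes were lower in HSC/P, with a median log2 difference of -6.15. S100a6 was lower in HSC/P, with a log2 difference of -6.36 ± 0.48 (SE, limma adjusted p = 0.00114), as was S100a11 with -5.91 ± 0.28 (limma adjusted p = 0.000631). S100a10 was higher in HSC/P by 1.75 ± 0.15 (limma adjusted p = 0.00147) and S100a1 by 1.37 ± 0.25 (limma adjusted p = 0.00947). S100a4 differed by 0.27 ± 0.24 (limma adjusted p = 0.377). With no scaling it differed by 1.94 (limma adjusted p = 0.000535), when the median of all genes moved from 0.10 to 1.46. Without the Ly6G+ RUNX1mut/HMGA2-OE library, S100a1 differed by 1.12 (limma adjusted p = 0.0675) and no longer passed, while S100a6, S100a11 and S100a10 did. The fitted differences of S100a8 and S100a9, given as a description, were -4.49 and -5.38, and -6.57 and -4.44 without that library.

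In HSC/P, no member passed the test of RUNX1mut/HMGA2-OE against HMGA2-OE. Both calprotectin genes were lower in both RUNX1mut/HMGA2-OE libraries. S100a8 differed by a log2 value of -1.86 ± 0.16 (SE) and S100a9 by -1.97 ± 0.14. By limma, 0 of 12226 genes (0%) passed the adjusted test, and 15.5% had an unadjusted p under 0.05, as had 6 of the 8 members. The choice of members used the levels in these libraries, so nothing is read from the count of members. In both libraries of the pair, 2.28% of all genes were at least 2-fold lower than with HMGA2-OE, and 4.14% at least 2-fold higher.

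The summed TPM of the 20 neutrophil genes was 15256 with HMGA2-OE and 3760 and 4888 in the pair, and 17 of them had a fitted value below 0 (median -1.82, against -0.00 for all genes). The summed HSC/P markers were at 459 with HMGA2-OE and at 845 and 781 in the pair, and the megakaryocyte and platelet genes at 417, 817 and 2226. The monocyte and macrophage genes were at 977, then 564 and 360, and the erythroid genes at 2530, then 1156 and 2117. The 9 monocyte and macrophage genes other than Ly6c2 were at 262, then 381 and 184. The part of these cells in the calprotectin values was not tested. S100a11 differed by -0.82 ± 0.21 and S100a6 by -0.72 ± 0.70, where 1 library of the pair had a log2 ratio of 0.04 and the other of -1.48.

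The other 4 members had higher HSC/P values in the RUNX1mut/HMGA2-OE pair without passing the test. S100a13 differed by 1.52 ± 0.21 (limma adjusted p = 0.150) and S100a4 by 1.07 ± 0.34 (limma adjusted p = 0.30). S100a10 differed by 0.60 ± 0.12 and S100a1 by 0.50 ± 0.30. The median over the 8 members was -0.11.

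The RUNX1 mutation and HMGA2 overexpression were each tested in Ly6G+ cells by an additive limma fit to the 4 libraries, which leaves 1 residual degree of freedom. No member passed either test, and no value is given for S100a13, which was near 0 in HMGA2-OE. For the RUNX1 mutation 0 of 9820 genes (0%) passed and 14.3% had an unadjusted p under 0.05, and for HMGA2 overexpression 0 passed and 6.51% had one. S100a4, a gene linked to cell movement, differed by 1.37 ± 0.27 for the RUNX1 mutation (limma adjusted p = 0.331). S100a10 differed by 1.09 ± 0.50 (limma adjusted p = 0.425). Over Control, S100a4 had a log2 ratio of 1.76 with RUNX1mut alone, 0.98 with HMGA2-OE alone and 1.96 with both. S100a10 had log2 ratios of 1.90, 1.37 and 1.66. At least 2-fold higher than Control were 5.36% of genes in RUNX1mut and 6.66% in RUNX1mut/HMGA2-OE, both genes among them. These ratios share the Control library, in which both genes were lowest.

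Both S100a4 and S100a10 had higher deposited TPM in every HSC/P library than in any Ly6G+ library, as had 66.5% of genes. After scaling, S100a10 was higher in HSC/P by 1.75 ± 0.15, while S100a4 differed by 0.27 ± 0.24 and did not pass. Among Ly6G+ libraries, S100a4 and S100a10 were highest in those with the RUNX1 mutation. Most sums of marker genes of other cells were too, but not that of the 10 monocyte and macrophage genes. With HMGA2-OE alone S100a4 and S100a10 were above Control, and of these sums only that of the megakaryocyte and platelet genes was. The summed HSC/P markers were at 17.3 TPM in Ly6G+ Control, 31.4 TPM with RUNX1mut alone, 11.9 TPM with HMGA2-OE alone and 38.5 TPM with both. The 6 megakaryocyte and platelet genes were at 3.84, 45.2, 4.87 and 62.1 TPM, and the 6 B lymphoid genes at 26.2, 77.2, 21.03 and 76.4 TPM. Ppbp and Treml1, both of platelets, were at 0 in Control. The 10 monocyte and macrophage genes were at 1470, 915, 1089 and 852 TPM, most of it Ly6c2, and the 9 others at 59.2, 128, 56.6 and 189 TPM. The 8 erythroid genes were at 156, 537, 126 and 6935 TPM. The part of these cells in the S100a4 and S100a10 values was not tested.

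S100a6, S100a11 and S100a1 differed for the RUNX1 mutation by -0.23 ± 0.16, -0.12 ± 0.10 and 0.09 ± 0.13. Without scaling, the S100a6 and S100a11 values were 0.46 and 0.56. For HMGA2 overexpression, S100a1 differed by -0.60 ± 0.13 (limma adjusted p = 0.728), S100a6 by -0.42 ± 0.16 and S100a11 by 0.19 ± 0.10.

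Whether the RUNX1 mutation acted differently in HSC/P and Ly6G+ cells was tested by an interaction term in the 5 libraries with HMGA2 overexpression. By limma, 0 of 12686 genes (0%) passed, and 18.1% had an unadjusted p under 0.05. S100a11 differed by -0.69 ± 0.35, S100a10 by 0.36 ± 0.19, S100a1 by 0.36 ± 0.51 and S100a6 by -0.20 ± 1.14, and none passed. The value of S100a4 was 0.01 ± 0.54, and its sign varied with the scaling. For S100a8 the mutation went with log2 ratios of -1.73 and -1.98 in HSC/P and -5.35 in Ly6G+ cells. For S100a9 these were -2.08 and -1.86 in HSC/P and -0.19 in Ly6G+ cells. The difference between the cell types was not tested for these 2 genes.

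The receptors through which calprotectin signals had low levels. Tlr4 was at 4.33 to 8.01 TPM in HSC/P and 9.67 to 25.6 TPM in Ly6G+ cells, and Ager, the receptor for advanced glycation end products, was at 0.739 to 4.31 TPM in all. Of 6 receptor and responder genes, 3 were lower in HSC/P by limma, as were 32.5% of all genes. The log2 differences of these 3 were -2.95 for Tlr4, -3.64 for its co-receptor Ly96 and -4.17 for the adaptor Myd88. Myd88 was at 464 TPM in Ly6G+ HMGA2-OE and at 84.7, 111 and 124 TPM in Control, RUNX1mut and RUNX1mut/HMGA2-OE. Bsg, which encodes basigin, was at 8.32 to 10.5 TPM in HSC/P and 1.74 to 4.49 TPM in Ly6G+ cells. None of these genes passed the tests of the mutations or the interaction.

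Among 9 binding partners of the family, 6 were lower in HSC/P by limma after scaling and 1 higher, against 32.5% and 32.2% of all genes. Sugt1, counted as lower, had a higher deposited TPM in every HSC/P library (30.8 to 40.6) than in any Ly6G+ library (9.9 to 23.3). Anxa1 and Anxa2, partners of S100a11 and S100a10, were lower, with log2 differences of -5.38 ± 0.28 and -5.87 ± 0.27. Anxa2 was thus high in Ly6G+ cells (853 to 1654 TPM), where S100a10 was low. Cacybp, the S100a6 partner, was the 1 that was higher in HSC/P, by 1.16 ± 0.24, the opposite direction to S100a6. Myh9, the heavy chain of non-muscle myosin that S100a4 binds, was lower too after scaling (-1.99 ± 0.15), as was Anxa11 (-2.13 ± 0.15). In deposited TPM the cell types overlapped for both genes. Every HSC/P value lay within the Ly6G+ range, which was 68.9 to 146 for Myh9 and 49.5 to 96.6 for Anxa11. The median over the 9 partners was -1.77, against 0.10 for all genes.

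Transcription factors that act on S100a8 and S100a9 were also compared. Of 9, 7 were lower in HSC/P by limma after scaling, as were 32.5% of all genes. Cebpa was the 1 that was higher (median of the 9, -3.49), as were 32.2% of all genes. Hif1a, counted as lower, had a higher deposited TPM in every HSC/P library (20.3 to 26.8) than in any Ly6G+ library (10.2 to 18.3). Cebpe, also counted as lower, overlapped in deposited TPM (55.6 to 114 in HSC/P, 54.5 to 153 in Ly6G+ cells). In the Ly6G+ libraries, again from Control to RUNX1mut/HMGA2-OE, the values were 66.2, 90.02, 54.5 and 153 TPM for Cebpe, which drives the late steps of granulocyte maturation. They were 566, 554, 543 and 618 TPM for Spi1, which encodes PU.1, 218, 207, 203 and 332 TPM for Cebpd, and 146, 167, 205 and 281 TPM for Stat3. Cebpb was at 100.2, 140, 184 and 219 TPM. Each of these 5 was highest in the Ly6G+ library with the lowest S100a8. As shares of TPM without S100a8, that library stood at 1.22 times the mean of the other 3 for Cebpe and 0.611 times for Spi1. It stood at 0.870 times for Cebpd, 0.878 times for Stat3 and 0.830 times for Cebpb. None passed the tests of the mutations.

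The 8 further S100 genes in the table were barely detected. Their highest value was 4.02 TPM, for S100a7a in Ly6G+ RUNX1mut/HMGA2-OE. Of the 8, 3 reached 1 TPM in a library, and S100z was listed at 0 in all 7 libraries.

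Genes with profiles most like those of S100a8 and S100a9 were different ones. Likeness was Pearson's r of log2(TPM + 1) over the 7 libraries, which share 2 cell types, among 2051 genes that reached 100 TPM. It is a description. Nearest to S100a9 were Lcn2, which encodes lipocalin-2 of neutrophil granules (r = 0.999), Chil1 (0.999), Ankrd22 (0.998), Prkcb (0.998) and Plp2 (0.998). Nearest to S100a8 were Bend6 (0.970), Lhx1 (0.940), Eif1 (0.932), Sh3bp5 (0.923) and Gca (0.916). Bend6, Lhx1 and Eif1 were among the genes with the lowest ratios in Ly6G+ RUNX1mut/HMGA2-OE. That library also enters the likeness, so nothing is read from this overlap. Gca encodes grancalcin, another calcium-binding protein of neutrophils. Within the family, S100a9 had an r of 0.975 with S100a11 and 0.943 with S100a6, and 0.746 with S100a8. S100a4 and S100a10 had an r of 0.958.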

How the data were processed

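The authors' deposited table holds TPM per Ensembl gene. Its values show this unit, as its header gives none and its name speaks of counts. The submitters' processing notes name bcl2fastq, CASAVA 1.8, kallisto and build mm10. Which kallisto version and annotation were used is not given in the sources used here. Symbols, lengths and coordinates came from GENCODE M21. TPM carries no depth, so tests for counts were not used and intervals from counting cannot be given. All columns of the table were used, and shares are of the listed genes' TPM.

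A gene entered a fit if 2 or more of its libraries had 1 TPM or more. Scaling used a trimmed mean of log ratios without weights (trims of 0.3 and 0.05), and limma 3.58.1 (R 4.3.3) with a trend was run on log2(scaled TPM + 1), two-sided, with Benjamini-Hochberg adjustment at 0.05 over all genes. Fold changes on this scale understate those of low genes. Python 3.11.15 and matplotlib 3.10.9 made the other values. The fit was tested on simulated data. S100a8 and S100a9 have no test in fits with the Ly6G+ RUNX1mut/HMGA2-OE library, which led to their choice.

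The members, gene lists (S100 genes, receptors, partners, regulators, neutrophil genes and markers of 5 other cell types) and alternatives were chosen with earlier results of these data known. Named genes are the members, up to 4 per list with the highest mean TPM, the 5 most like S100a8 and S100a9, and the 10 lowest and 5 highest ratios in Ly6G+ RUNX1mut/HMGA2-OE among genes at 100 TPM, without clone names and pseudogenes. Ager, Cebpe, Cacybp, Cebpa, Hif1a, Sugt1, Ltf, Lcn2 and single markers outside this rule were named after their values were seen. P-values measure the spread of very few libraries.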

Additional observations from a re-analysis of the deposited data

Results flagged for a closer look

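After scaling, S100a1 had log2 ratios of opposite sign for the RUNX1 mutation in Ly6G+ cells without and with HMGA2 overexpression. The ratio was -0.012 for RUNX1mut over Control and 0.18 for RUNX1mut/HMGA2-OE over HMGA2-OE. In deposited TPM both ratios were positive, at 0.16 and 1.40. Each rests on 1 library a side, and the difference was not tested.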

How the results depend on the processing

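Of the counts of genes that passed, those that moved did so with scaling, filter or samples, and the cause was not tested. With no scaling, 1 gene passed in HSC/P, 133 for the RUNX1 mutation and 61 for HMGA2 overexpression in Ly6G+ cells, where 0 passed with scaling. With all 7 libraries in an additive fit, 58 passed for HMGA2 overexpression. For the interaction, 3250 passed with no filter on low TPM and 1 with a filter of 10 TPM. S100a6, S100a11, S100a10, S100a1 and S100a4 were not among these. With no scaling, the S100a8 log2 ratios of Ly6G+ RUNX1mut/HMGA2-OE were -4.16 over HMGA2-OE, -3.70 over RUNX1mut and -3.84 over Control. For the RUNX1 mutation in Ly6G+ cells, no scaling turned S100a9 to 0.49, S100a6 to 0.46 and S100a11 to 0.56. In the interaction, no scaling turned S100a1 to -0.59, S100a10 to -0.63 and S100a4 to -0.76. S100a4 there was also below 0 with a pseudocount of 0.1 TPM (-0.0037), a filter of 10 TPM (-0.021), upper-quartile scaling (-0.0075) and TPM recomputed without S100a8 and S100a9 (-0.029). Without HSC/P replicate 1 or 2, S100a4 in the interaction was -0.35 or 0.31, S100a6 in the interaction -0.96 or 0.50, and S100a6 in HSC/P -1.46 or 0.037. Between cell types, 8212 genes passed, and 6401 and 6692 without HSC/P replicate 1 or 2. S100a4 passed there also with upper-quartile scaling (0.80) and with TPM recomputed without S100a8 and S100a9 (1.48). The S100a8 to S100a9 ratio in Ly6G+ RUNX1mut/HMGA2-OE was 0.207 when TPM was multiplied by transcript length. The fits without the Ly6G+ RUNX1mut/HMGA2-OE library and the pairs with TPM recomputed without S100a8 alone were chosen after seeing the data. Leaving out 1 HSC/P replicate gave values without a test in HSC/P and the interaction, and the additive fit was not run for the interaction. No paired analysis was possible because no groups share 2 replicate numbers.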
